A study of Homo sapiens with 12 samples.

Results

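Messenger RNA levels of 8 PARP genes and their partner DTX3L were examined in FaDu cells, an established line from a squamous carcinoma of the head and neck, with and without STING. The 9 genes were chosen by name out of the 58288 genes listed, with earlier results of these data known, and they fall into 3 sets. PARP9, DTX3L, PARP10, PARP12 and PARP14 are known as interferon-stimulated genes, PARP1, PARP2 and PARP3 respond to DNA breaks, and PARP4 is a component of vault particles. Gene expression was measured by RNA-Seq of polyadenylated RNA in 12 libraries, 3 in each of 4 groups. The groups were FaDu cells carrying Cas9 and a non-targeting gRNA (STING WT, genotype WT in the labels) and FaDu cells carrying Cas9 and a STING gRNA (STING KO, genotype STING-/-), either unirradiated (0Gy) or given 4 daily fractions of 2 Gy (RT). All groups therefore share the line and the Cas9 construct, and each genotype is represented by a single gRNA, so an effect of STING loss and an effect of that gRNA or of the derivation of the line cannot be told apart. Expression is given in TPM (transcripts per 1000000), a unit that divides by transcript length and by the library total, so levels can be compared between genes but read depth is not recorded in it. The error is therefore estimated from the spread between libraries. The labels do not say whether the 3 libraries of a group came from separate cultures. The p-values thus measure the spread between these libraries, which may be technical. In bulk RNA, fewer cells expressing a gene and less RNA per cell cannot be told apart.

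Enzymes of the PARP family transfer ADP-ribose from NAD+ to proteins or nucleic acids. PARP1 and PARP2 build poly(ADP-ribose) chains at DNA breaks and are the targets of PARP inhibitors used in cancer, whereas most other members add single ADP-ribose units. Interferons act through JAK kinases on transcription factors that bind the interferon-stimulated response element (ISRE) or the gamma-activated site (GAS) in promoters of interferon-stimulated genes.

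PARP9 and DTX3L form a protein complex with ubiquitin ligase activity, and their genes lie head to head. On GRCh38, PARP9 (ENSG00000138496.16) occupies chromosome 3, 122527924 to 122564577 on the minus strand, and DTX3L (ENSG00000163840.9) occupies 122564238 to 122575203 on the plus strand, so that the annotated genes overlap by 340 bp. PARP14 (ENSG00000173193.13) lies 116 kb further along the same chromosome, at 122680618 to 122730840 on the plus strand. PARP12 (ENSG00000059378.12) is at chromosome 7, 140023744 to 140063721 on the minus strand. The other members shown here are PARP1 (ENSG00000143799.12; chromosome 1, 226360691 to 226408079, minus strand), PARP2 (ENSG00000129484.13; chromosome 14, 20343582 to 20357905, plus strand), PARP3 (ENSG00000041880.14; chromosome 3, 51942345 to 51948867, plus strand) and PARP4 (ENSG00000102699.5; chromosome 13, 24420926 to 24512810, minus strand).

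Promoter sequence is shown for the 4 genes that were lower in STING KO cells in both radiation arms, because each holds the letters of an ISRE core, and for PARP1 as a gene without it. The sequences are RefSeq promoter windows on GRCh38.p14, read 5′ to 3′ on the strand of the gene, and cover the 100 bases before the transcript start (for DTX3L, 4 bases after it as well). Capitals mark a match to the ISRE core on either strand, spelled as GAAA, then any 2 bases, then GAAA again. The positions are chr3:122564301-122564400 (minus strand) for the second PARP9 window, chr3:122564238-122564341 (plus strand) for DTX3L, chr3:122680739-122680838 (plus strand) for PARP14, chr7:140062952-140063051 (minus strand) for PARP12 and chr1:226408094-226408193 (minus strand) for PARP1.
PARP9: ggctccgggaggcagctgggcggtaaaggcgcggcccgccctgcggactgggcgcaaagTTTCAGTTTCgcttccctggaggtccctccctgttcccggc
DTX3L: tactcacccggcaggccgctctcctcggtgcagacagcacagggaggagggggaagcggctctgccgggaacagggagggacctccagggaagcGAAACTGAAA
PARP14: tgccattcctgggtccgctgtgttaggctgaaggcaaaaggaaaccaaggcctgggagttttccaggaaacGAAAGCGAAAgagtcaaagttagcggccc
PARP12: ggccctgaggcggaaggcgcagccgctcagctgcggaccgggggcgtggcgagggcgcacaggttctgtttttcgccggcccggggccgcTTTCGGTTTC
PARP1: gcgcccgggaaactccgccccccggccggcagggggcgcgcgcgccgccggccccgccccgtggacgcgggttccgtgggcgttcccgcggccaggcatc
The match of PARP9, at -41 to -32 from its second start, and the match of DTX3L, at -6 to 4 from its start, are the same 10 bases of chromosome 3, 122564332 to 122564341, read from opposite strands. The match of PARP14 lies at -29 to -20 and that of PARP12 at -10 to -1.

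Windows of 250 bases before to 50 after the start were matched for 7 of the 9 genes. PARP4 had no window. PARP10, an interferon-linked gene, was left out of the matching, so whether it holds either core is not reported here. The ISRE core was in the second of 2 windows of PARP9 and in the windows of DTX3L, PARP12 and PARP14 and in none of PARP1, PARP2 and PARP3, while 3.57% of all 35116 RefSeq windows hold it. The GAS core TTCNNNGAA, which reads the same on both strands, was present in the windows of PARP14 (-40 to -32) and PARP2 (-154 to -146) and is held by 7.66% of all windows. A match describes the letters of the window and does not show that a factor binds there.

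The targeted gene was examined first. TMEM173, which encodes STING, was listed at 21.67, 23.51 and 21.15 TPM in the unirradiated WT libraries and at 5.181, 5.294 and 6.957 TPM in the unirradiated KO libraries. After RT it was at 26.07, 21.41 and 21.72 TPM in WT and 6.349, 7.411 and 7.081 TPM in KO. All KO libraries lay below all WT libraries, with mean differences of -16.3 and -16.12 TPM. The two-sided exact permutation test gave p = 0.1 in each arm, the smallest value that 3 against 3 libraries allow. The 10 squamous epithelial markers examined were at 1 TPM or more in every library. Of 6 immune markers only CD14 and CD68 reached 1 TPM in every library, with PTPRC at most at 0.0894 TPM, and of 6 fibroblast markers only COL1A1 did. Of 4 endothelial markers VWF and CDH5 did, with PECAM1 at most at 0.0989 TPM. The summed immune markers were at 18.9 to 25.2 TPM in unirradiated WT, 18.9 to 28.3 in unirradiated KO, 27.6 to 34.2 in irradiated WT and 20.7 to 28.1 in irradiated KO libraries. The summed endothelial markers were at 11.5 to 13.9, 13.0 to 15.9, 18.3 to 18.7 and 19.9 to 23.9 TPM in the same order, and the summed fibroblast markers were between 6.4 and 9.36 TPM in all libraries. The part of these markers in the results was not tested.

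In unirradiated cells, STING KO was accompanied by lower PARP9, DTX3L, PARP12 and PARP14 mRNA, and PARP1, PARP2, PARP3, PARP4 and PARP10 did not pass the test. Differences were tested with limma on log2(TPM + 1) across the 15973 genes with 1 TPM or more in at least 3 libraries, with Benjamini-Hochberg adjustment over all of them and a threshold of 0.05. All 9 genes passed the filter on low values. Of the 9 genes, 4 were past the threshold and all 4 were lower in KO, against 1.26% of all genes tested that were called lower. In irradiated cells 5 of the 9 were lower in KO and none was higher, against 2.66% of all genes called lower. The 4 genes called in unirradiated cells were again among the 5, and 1.05% of all genes tested were called lower in both arms. Because the 9 genes were chosen with earlier results of these data known, these counts are not an independent test of enrichment. All libraries of KO lay below all libraries of WT for 4 of the 9 genes in unirradiated cells and for 6 in irradiated cells (the 5 called genes and PARP3), against 12.1% and 14.5% of all genes tested. The median KO difference over the 5 interferon-linked genes was -0.61 in unirradiated and -0.86 in irradiated cells on the log2(TPM + 1) scale, beside -0.021 and -0.017 over all genes tested.

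**Figure D1:**
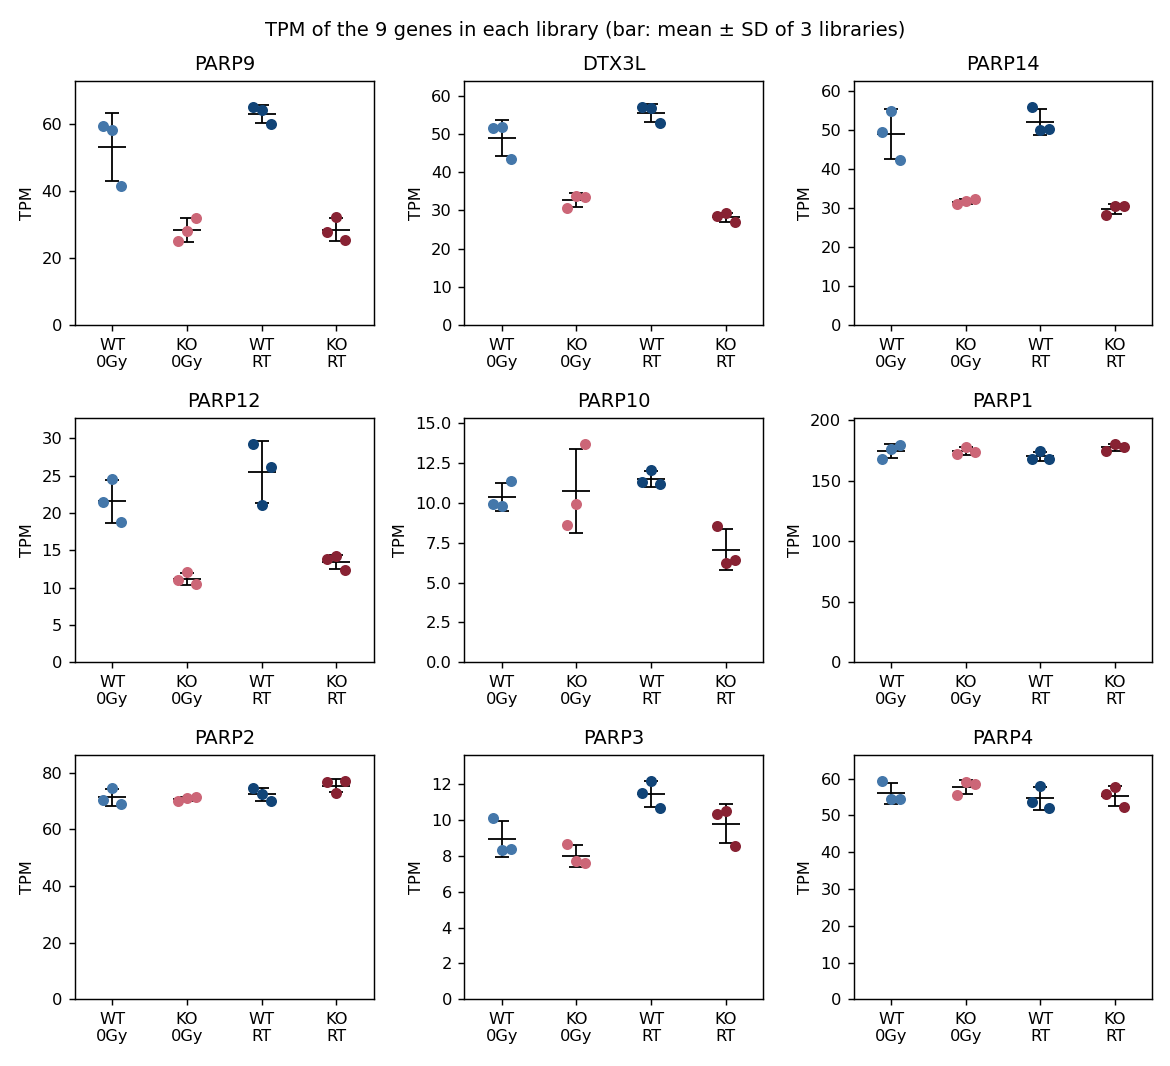
TPM (vertical axes, from 0) of the 9 genes in STING WT and STING KO libraries, unirradiated (0Gy) and irradiated (RT). Points are libraries, and the horizontal line and whiskers are the mean and SD of 3 libraries. PARP9, DTX3L, PARP14 and PARP12 have all KO points below all WT points in both arms, and for PARP10 and PARP3 this is so after RT only.

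PARP9, a macrodomain protein with little catalytic activity of its own, was at 59.53, 58.23 and 41.42 TPM in unirradiated WT libraries and at 25.1, 28.0 and 32.0 TPM in unirradiated KO libraries. After RT its levels were 65.02, 64.23 and 59.96 TPM in WT and 27.77, 32.27 and 25.5 TPM in KO. No KO library reached the lowest WT library in either arm. The KO difference was -0.87 on the log2(TPM + 1) scale in unirradiated cells (SE 0.141, limma adjusted p = 0.0105) and -1.12 in irradiated cells (limma adjusted p = 0.00142), from group means of 53.06 ± 10.1 and 28.37 ± 3.465 TPM (SD, n = 3 libraries) and of 63.07 ± 2.724 and 28.51 ± 3.446 TPM. In order of mean level the groups ran from irradiated WT through unirradiated WT to irradiated and unirradiated KO, and the KO groups overlapped each other.

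DTX3L, the ubiquitin ligase subunit that partners PARP9, was at 51.51, 51.93 and 43.57 TPM in unirradiated WT and at 30.71, 33.89 and 33.58 TPM in unirradiated KO libraries. After RT it was at 57.03, 56.75 and 52.92 TPM in WT and at 28.64, 29.23 and 26.89 TPM in KO. None of the 4 groups overlapped another, in the order irradiated WT, unirradiated WT, unirradiated KO and irradiated KO. The KO difference was -0.57 in unirradiated cells (95% interval -0.73 to -0.40, limma adjusted p = 0.00331) and -0.95 in irradiated cells (95% interval -1.12 to -0.79, limma adjusted p = 4.51e-05). The ratio of PARP9 to DTX3L TPM lay between 0.951 and 1.16 in unirradiated WT, 0.817 and 0.953 in unirradiated KO, 1.13 and 1.14 in irradiated WT and 0.948 and 1.1 in irradiated KO libraries. Reads from the stretch where these genes overlap cannot be told apart without strand, and the strand setting is not given in the sources used here.

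PARP14, a macrodomain mono-ADP-ribosyltransferase that acts in cytokine signalling, was at 49.52, 54.91 and 42.36 TPM in unirradiated WT and at 30.91, 31.64 and 32.32 TPM in unirradiated KO libraries. In irradiated cells it was at 55.77, 49.96 and 50.2 TPM in WT and at 28.16, 30.39 and 30.56 TPM in KO. The WT groups overlapped each other and lay above both KO groups. The KO difference was -0.61 in unirradiated cells (SE 0.0862, limma adjusted p = 0.00477) and -0.79 in irradiated cells (limma adjusted p = 0.000534).

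PARP12, a zinc finger mono-ADP-ribosyltransferase with antiviral activity, was the lowest expressed of the 4 genes. Its levels were 21.43, 24.48 and 18.75 TPM in unirradiated WT and 11.03, 12.03 and 10.46 TPM in unirradiated KO libraries. After RT they were 29.18, 21.05 and 26.21 TPM in WT and 13.81, 14.17 and 12.4 TPM in KO. Again the KO libraries all lay below the WT libraries. The KO difference was close to the same size in both arms, at -0.88 in unirradiated (SE 0.124, limma adjusted p = 0.00454) and -0.86 in irradiated cells (limma adjusted p = 0.00363). Summed over PARP9, DTX3L, PARP12 and PARP14, the level was 172.5 ± 23.21 TPM in unirradiated WT, 103.9 ± 5.495 in unirradiated KO, 196.1 ± 9.54 in irradiated WT and 99.93 ± 5.521 TPM in irradiated KO (mean ± SD, n = 3 libraries). These are the 4 genes called lower in KO in both arms, so their sum is no further support. PARP10 is not in the sum.

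Replicate 3 of the unirradiated WT group had the lowest level of PARP9, DTX3L, PARP12 and PARP14 in its group. Without it the KO differences in unirradiated cells were -1.03 for PARP9, -0.65 for DTX3L, -0.98 for PARP12 and -0.70 for PARP14, all still past the threshold. When only the 6 unirradiated libraries were fitted, PARP12 alone passed, with limma adjusted p of 0.101 for PARP9, 0.0627 for DTX3L and 0.073 for PARP14.

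PARP10 (ENSG00000178685.13), a mono-ADP-ribosyltransferase that binds PCNA, lies at chromosome 8, 143977153 to 144012772 on the minus strand, and had another pattern. In unirradiated cells it was at 9.969, 9.821 and 11.37 TPM in WT and at 8.652, 9.913 and 13.69 TPM in KO, so that the groups overlapped and the KO difference was 0.025 (95% interval -0.31 to 0.36, limma adjusted p = 0.963). In irradiated cells it was at 11.32, 12.08 and 11.17 TPM in WT and at 8.58, 6.258 and 6.398 TPM in KO, without overlap. The KO difference there was -0.64 (SE 0.153, limma adjusted p = 0.0481). That call was lost without any one of 9 of the 12 libraries (all but KO 0Gy replicates 1 and 3 and KO RT replicate 1), with adjusted p between 0.018 and 0.149 over the 12 fits, and under 6 of 8 other settings, with adjusted p between 0.0416 and 0.0915 over the 8. PARP10 shares 3358 bp with GRINA on the opposite strand, which had a mean of 75.6 TPM, and without a known strand setting their reads may be mixed.

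None of PARP1, PARP2 and PARP3 passed the test of STING KO by limma in either arm (0 of 3 in each at an unadjusted p under 0.05, against 14.3% and 17.9% of all genes tested). PARP1, the main poly(ADP-ribose) polymerase, was the most abundant of the 9 genes, at 168.0, 176.4 and 179.6 TPM in unirradiated WT and 172.3, 178.1 and 173.3 TPM in unirradiated KO libraries. In irradiated cells it was at 167.6, 174.4 and 168.2 TPM in WT and at 174.6, 180.0 and 178.1 TPM in KO, where the lowest KO library was just above the highest WT library. Its KO difference had a 95% interval of -0.086 to 0.085 in unirradiated and -0.024 to 0.15 in irradiated cells (limma adjusted p = 0.998 and 0.464). PARP2, which acts with PARP1 at single-strand breaks, had group means between 70.9 ± 0.6952 and 75.46 ± 2.279 TPM (SD, n = 3 libraries). Its interval was -0.11 to 0.093 in unirradiated cells, and the sign of the PARP1 and PARP2 differences there changed with the scaling of the libraries. PARP3, a mono-ADP-ribosyltransferase of double-strand break repair, differed by -0.14 in unirradiated and -0.21 in irradiated cells (limma adjusted p = 0.583 and 0.319). Averaged over both arms, a comparison added after seeing the data, PARP3 differed by -0.17 (95% interval -0.33 to -0.017). By limma its unadjusted p was 0.0329 and its adjusted p 0.182. In that comparison 3460 of the 15973 genes tested had an unadjusted p under 0.05. PARP4 differed by 0.043 and 0.016 in these arms (limma adjusted p = 0.809 and 0.927), from group means of 54.63 to 57.7 TPM.

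The summed level of PARP1, PARP2 and PARP3 was 255.0 ± 5.818 TPM in unirradiated WT, 253.4 ± 3.116 in unirradiated KO, 253.9 ± 5.051 in irradiated WT and 262.8 ± 1.132 TPM in irradiated KO (mean ± SD, n = 3 libraries).

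**Figure D2:**
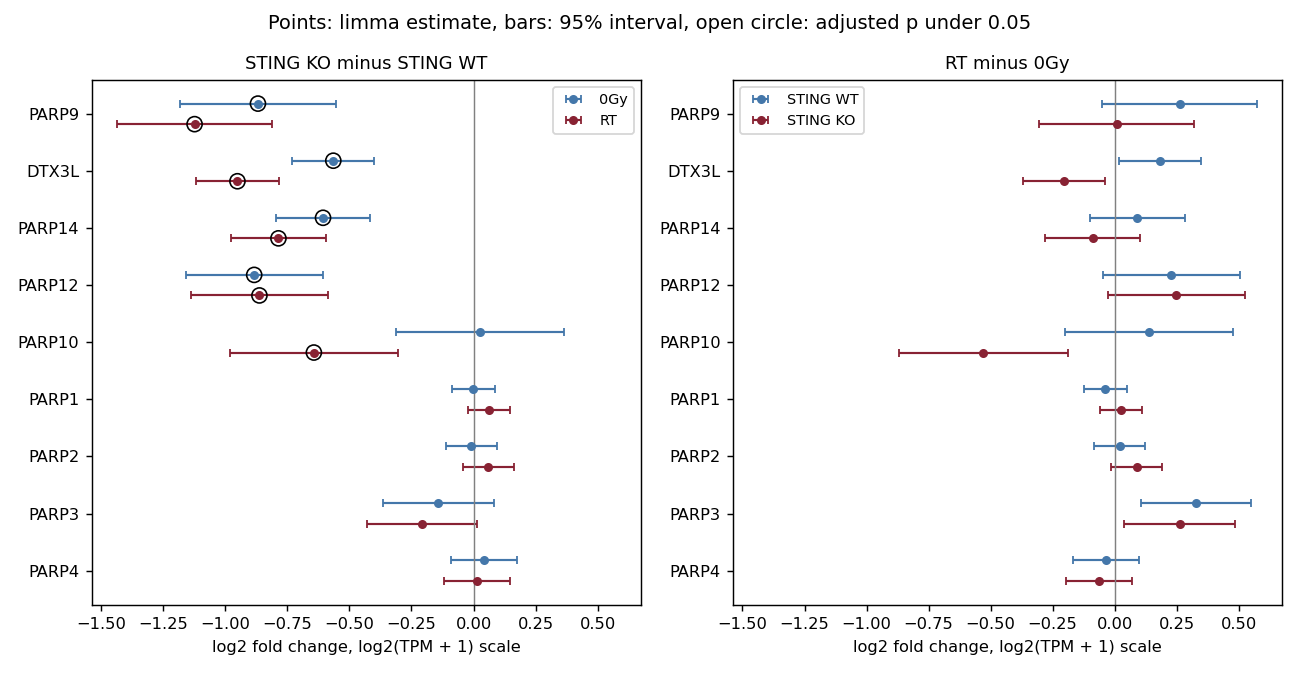
Log2 fold changes of the 9 genes on the log2(TPM + 1) scale, for STING KO minus WT in each radiation arm (left) and for RT minus 0Gy in each genotype (right). Points are limma estimates, bars are 95% intervals and open circles mark genes past the threshold, which are PARP9, DTX3L, PARP14 and PARP12 in both KO comparisons and PARP10 in irradiated cells only by this test.

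Radiation gave no call among the 9 genes in either genotype. The time between the last fraction and RNA collection is not reported here, and times after RT were not compared. In STING WT cells 0 of 9 were past the threshold by limma (2 at an unadjusted p under 0.05, DTX3L and PARP3), against 3.74% of all genes tested (18.2% at the unadjusted threshold). In STING KO cells 0 of 9 were past it (3 at an unadjusted p under 0.05, DTX3L, PARP3 and PARP10), against 3.69% of all genes (18.1% at the unadjusted threshold). The radiation comparisons use the same libraries as the KO comparisons, so the values of one are not independent of the other. PARP9 differed by 0.26 with RT in WT (95% interval -0.050 to 0.58, limma adjusted p = 0.368) and by 0.0074 in KO (-0.31 to 0.32, limma adjusted p = 0.987). PARP12 differed by 0.23 in WT and 0.25 in KO, and PARP14 by 0.091 and -0.088. The intervals of these 3 genes all included 0, and that of PARP12 in KO cells reached 0.52.

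DTX3L differed with RT by 0.18 in WT (limma adjusted p = 0.231) and by -0.20 in KO cells (limma adjusted p = 0.175). All 3 irradiated WT libraries were above, and all 3 irradiated KO libraries below, the unirradiated libraries of the same genotype. Such an opposite separation was seen in 0.419% of all genes tested. DTX3L was singled out by this pattern, so the share is not support for a difference. The difference between the radiation effects was -0.39 (95% interval -0.62 to -0.15), with an unadjusted p of 0.0042 and an adjusted p of 0.621 by limma. Without replicate 3 of the unirradiated WT group it was -0.31, and the RT differences in WT were 0.10 for DTX3L and 0.097 for PARP9. PARP10 had a difference between the radiation effects of -0.67 (limma adjusted p = 0.68), from RT values of 0.14 in WT and -0.53 in KO (limma adjusted p = 0.702 and 0.0916). None of the 9 genes passed the test of this difference (2 at an unadjusted p under 0.05), against 0.0188% of all genes tested (6.61% at the unadjusted threshold).

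PARP3 was higher with RT when both genotypes were averaged, a comparison added after seeing the data. Its levels were 10.1, 8.339 and 8.349 TPM in unirradiated WT, 11.48, 12.13 and 10.67 TPM in irradiated WT, 8.669, 7.7 and 7.575 TPM in unirradiated KO and 10.32, 10.49 and 8.553 TPM in irradiated KO libraries. The WT groups did not overlap, and the lowest irradiated KO library was below the highest unirradiated KO library. The averaged difference was 0.29 (SE 0.071, limma adjusted p = 0.0268), against 6.14% of all genes called higher in this comparison, and within genotypes it was 0.33 in WT and 0.26 in KO (limma adjusted p = 0.112 and 0.197). PARP3 was the only one of the 9 genes called here, and single libraries were not left out of this averaged comparison. PARP1, PARP2 and PARP4 differed with RT by -0.038, 0.020 and -0.035 in WT and by 0.024, 0.088 and -0.063 in KO cells, and none of these was past the threshold.

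The rest of the PARP family and the deltex family of ubiquitin ligases, to which DTX3L belongs, were examined in the same fits. Of 9 further PARP genes, 8 passed the filter, and 1 of these was lower in KO in each arm. Of all genes tested, 1.26% in unirradiated and 2.66% in irradiated cells were called lower. This was ZC3HAV1, which encodes PARP13, an antiviral zinc finger protein that lacks ADP-ribosyltransferase activity. It was at 93.53, 97.63 and 87.6 TPM in unirradiated WT, 48.8, 50.14 and 47.06 TPM in unirradiated KO, 108.5, 109.9 and 104.4 TPM in irradiated WT and 50.33, 51.99 and 51.26 TPM in irradiated KO libraries. The KO difference was -0.92 in unirradiated cells (SE 0.0494, limma adjusted p = 3.59e-06) and -1.06 in irradiated cells (limma adjusted p = 8.12e-07). ZC3HAV1 also rose with RT in WT cells, by 0.21 (limma adjusted p = 0.0452), with 0.072 in KO cells (limma adjusted p = 0.495), and the difference between these was -0.14 (limma adjusted p = 0.769). Its RefSeq window holds the GAS core at -104 to -96 and no ISRE core.

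TNKS, TNKS2, PARP6, TIPARP, PARP8, PARP11 and PARP16 had KO differences between -0.22 and -0.013 in unirradiated and between -0.28 and 0.23 in irradiated cells. None was past the threshold by limma. At an unadjusted p under 0.05 there were 0 and 2 of these 7, beside 14.3% and 17.9% of all genes tested. The largest of these upward differences was that of PARP6 in irradiated cells, at 0.23 (limma adjusted p = 0.119), with 50.22 ± 4.945 TPM in KO and 42.53 ± 2.186 TPM in WT (SD, n = 3 libraries). PARP15, which lies between PARP9 and PARP14, was listed at 0 in 11 libraries and at 0.01405 TPM in the other. The median KO difference of the 8 genes was -0.075 in unirradiated and -0.070 in irradiated cells, beside -0.021 and -0.017 over all genes tested. All 8 were below 0 in unirradiated cells and 5 in irradiated cells, as were 8877 and 8630 of the 15973 genes tested. Of the deltex genes, DTX2, DTX3 and DTX4 passed the filter and DTX1 was listed at 0 in all libraries. None was past the threshold for STING KO within either arm by limma. At an unadjusted p under 0.05 there were 2 of these 3 in unirradiated cells (DTX3 and DTX4) and 0 in irradiated cells. Of all genes tested, 14.3% and 17.9% had such a p. DTX4 fell by 0.40 with RT in WT cells (limma adjusted p = 0.0245), from 8.566 ± 0.685 to 6.231 ± 0.1811 TPM (SD, n = 3 libraries), and differed by -0.26 in KO cells (limma adjusted p = 0.11). In the KO comparison averaged over both arms, added after seeing the data, DTX4 was called, at -0.24 (limma adjusted p = 0.0281), where 7.43% of all genes tested were called in either direction.

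**Figure D3:**
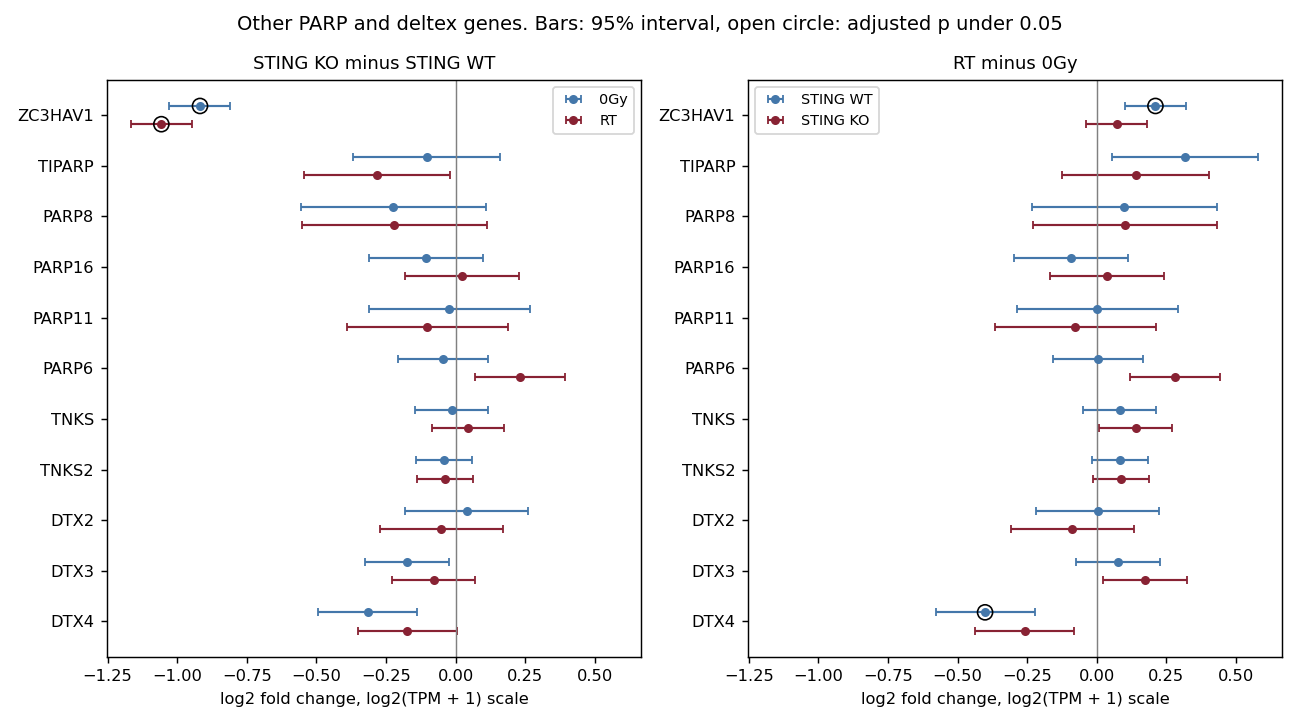
Log2 fold changes of the other PARP and deltex genes that passed the filter, for STING KO minus WT (left) and RT minus 0Gy (right), on the log2(TPM + 1) scale. Points are limma estimates and bars 95% intervals, and the open circles past the threshold belong to ZC3HAV1 (-0.92 and -1.06 for KO, 0.21 for RT in WT) and DTX4 (-0.40 for RT in WT).

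PARP9, DTX3L and PARP14 lie close together, so the genes around them were examined. Within 500 kb of the start of PARP9, 19 genes are annotated and 12 passed the filter. The 9 of these that are not among the 9 genes studied (CSTA, CCDC58, FAM162A, WDR5B, AC083798.2, KPNA1, HSPBAP1, DIRC2 and LINC02035) had KO differences between -0.38 and 0.17 in unirradiated and between -0.33 and 0.15 in irradiated cells. By limma 0 of these 9 were past the threshold in either arm (2 in unirradiated and 1 in irradiated cells at an unadjusted p under 0.05, beside 14.3% and 17.9% of all genes tested), with the lowest adjusted p at 0.307 and 0.193, both for DIRC2. KPNA1, the nearest of them at -49.6 kb from the start of PARP9, differed by -0.092 and -0.14 (limma adjusted p = 0.914 and 0.828). HSPBAP1, whose gene is the next one after PARP14, differed by -0.027 and -0.12.

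**Figure D4:**
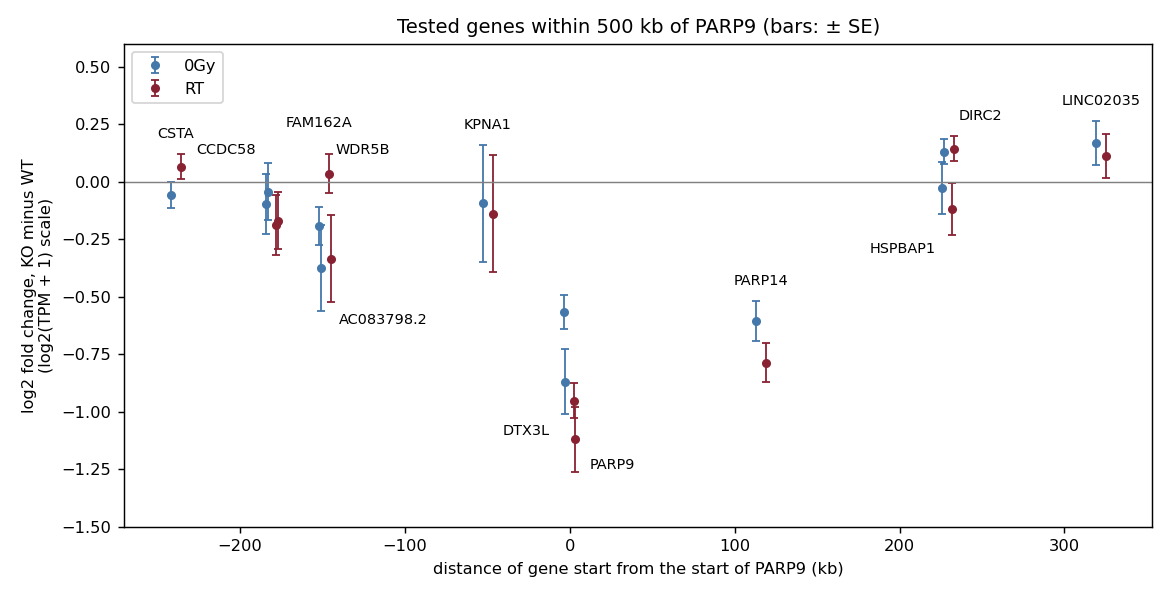
STING KO minus WT on the log2(TPM + 1) scale for the 12 tested genes within 500 kb of PARP9, against the distance of each gene's start from that of PARP9. Points are limma estimates, bars are ± SE, and the 0Gy and RT points of a gene are drawn slightly apart. PARP9, DTX3L and PARP14 are at -0.57 or lower in both arms, while the other 9 genes lie between -0.38 and 0.17.

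Genes whose profile over the 12 libraries was most like that of each interferon-linked member were found by the root mean square difference of log2(TPM + 1) after subtracting each gene's mean. For DTX3L these were IFIT5 (0.0822), PARP14 (0.088) and UBE2L6 (0.096), and for PARP14 they were DTX3L (0.088), TRIM21 (0.0889) and LZTS1 (0.0899). For PARP9 they were SLC5A4-AS1 (0.116), IRF7 (0.124) and SP110 (0.126). For PARP12 they were SLC15A3 (0.131), SAMHD1 (0.145) and ZC3HAV1 (0.146). PARP10 had no profile as near, with AXIN1 (0.165), RASAL1 (0.169) and ANKS6 (0.174) as its nearest.

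Among 12 genes that carry the interferon signal (receptor chains, JAK kinases, STAT2 and interferon regulatory factors), 2 were lower in STING KO in unirradiated and 4 in irradiated cells, against 1.26% and 2.66% of all genes tested, and none was higher. IRF9, the DNA-binding subunit of the complex that recognises the ISRE, had KO differences of -1.19 and -2.09 (limma adjusted p = 0.00574 and 7.6e-05). IRF7, an inducible regulator of interferon genes, had -0.82 and -1.24, and STAT2 and IRF1 were called in irradiated cells, at -0.38 and -0.73 (limma adjusted p = 0.0484 and 0.0376). The median over the 12 genes was -0.070 in unirradiated and -0.048 in irradiated cells. This list was also chosen with earlier results of these data known, so its counts are not an independent test of enrichment.

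Genes that act with PARP1 and PARP2 or that supply and remove ADP-ribose were examined in the same fits. Of all genes tested, 1.26% and 2.66% were called lower in KO in unirradiated and irradiated cells. With RT, 3.74% and 3.69% were called in either direction in WT and KO cells. At such shares few calls would be found in any lists of this size. The 10 ADP-ribose erasers included the glycohydrolase PARG and the macrodomain hydrolase MACROD1. By limma 0 of them were past the threshold in any of the 4 KO and radiation comparisons within an arm or genotype. At an unadjusted p under 0.05 there were 1 and 2 of them for KO in unirradiated and irradiated cells. For RT in WT and KO there were 3 and 0. Of all genes tested, 14.3% and 17.9% had such a p for KO, and 18.2% and 18.1% for RT. Of 13 tested partners and readers of PARP1 and PARP2, such as XRCC1 and HPF1, 1 was called in these 4 comparisons. This was PARPBP, an inhibitor of recombination, which fell by 0.82 with RT in KO cells (limma adjusted p = 0.0381), where 3.69% of all genes tested were called in either direction. Of 22 base excision repair genes, 1 was called in them, APEX1, the abasic site endonuclease, which was higher in KO by 0.75 in irradiated cells (limma adjusted p = 0.0385), where 148 of the 15973 genes tested were called higher. In the KO comparison averaged over both arms, added after seeing the data, 7.43% of all genes tested were called in either direction. There APEX1 was at 0.49 and APTX, an end-processing enzyme that is on both lists, at -0.19. Both were called (limma adjusted p = 0.0352 and 0.0325). NAD+ is the substrate of those PARP family members that transfer ADP-ribose. Of 10 tested genes of NAD metabolism, 1 was called in the 4 comparisons, NAMPT, the rate-limiting enzyme of NAD+ salvage. By limma 2 of the 10 had an unadjusted p under 0.05 for KO in each arm, beside 14.3% and 17.9% of all genes. For RT there were 4 in WT and 1 in KO cells, beside 18.2% and 18.1%. NAMPT differed between KO and WT by -0.19 in unirradiated and -0.31 in irradiated cells and rose with RT in WT cells by 0.18 (limma adjusted p = 0.043, 0.00188 and 0.0412).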

How the data were processed

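RNA-Seq libraries of 12 FaDu samples were analysed from a table of TPM values for 58288 genes, deposited by the authors and summing to 1000000 in each library. The submitters' processing notes name HISAT2, StringTie, DESeq2 and the build hg38, without versions. The annotation and strand setting are not given in the sources used here. Columns are named by gRNA line (NT2, A63), and were assigned to STING WT and STING KO from the methods and from the headings of a supplementary table, with replicate numbers as in the labels. From the deposited TPM, log2(TPM + 1) was modelled in R 4.3.3 with limma 3.58.1 (4 group means, 8 residual degrees of freedom, eBayes with trend) for genes with 1 TPM or more in at least 3 libraries, with Benjamini-Hochberg adjustment over 15973 genes. A linear model was used because counts were not used here. Read depth is not recorded in TPM, so the counting error within the values cannot be computed from them. Of the gene identifiers, 58025 matched GENCODE release 29, which gave the coordinates. Promoter windows are RefSeq's (GRCh38.p14). PARP14 and PARP16 matched without the version number.

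Genes are named by rule: TMEM173, the 9 members, the other PARP and deltex genes, up to 4 called genes per further list by size of change, the 3 nearest profiles of each interferon-linked member, and tested genes within 500 kb of PARP9. XRCC1, HPF1, PARG and MACROD1 are named as examples of their lists. The members and lists were chosen with earlier results of these data known. A further gene of the interferon signal list is not reported here. Alternative fits used quantile normalization or median-of-ratios factors, a filter at a mean TPM of 5 or no filter, a pseudocount of 0.1, a replicate block, eBayes without trend, only the 6 libraries compared, or all libraries but 1. Contrasts averaged over genotypes or arms were added after seeing the data.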

Additional observations from a re-analysis of the deposited data

Results flagged for a closer look

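DTX3L was singled out because its radiation effects went opposite ways in the 2 genotypes: every irradiated WT library was above, and every irradiated KO library below, the unirradiated libraries of that genotype. The difference between the radiation effects was -0.39 on the log2(TPM + 1) scale. By limma it had an unadjusted p of 0.0042 and an adjusted p of 0.621, so the difference was not past the threshold over all genes tested.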

How the results depend on the processing

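TPM keeps no depth, so it limits these results in an unknown way. The 4 lower genes of unirradiated KO cells kept their call in each of the 12 fits without a library (4 to 4 called). For PARP9 the limma adjusted p reached 0.0497 in these fits, just under the threshold. The count moved to 1 with only the 6 libraries compared. In irradiated cells 4 to 5 members were called without a library. With a library left out, 0 to 0 members were called for RT in WT, RT in KO and the difference between the radiation effects, and the averaged radiation contrast, added after seeing the data, called 1. Counts over all genes moved more. Left-out libraries gave 174 to 294 genes for KO in unirradiated cells (276 with all libraries, lowest without KO 0Gy replicate 2), 310 to 540 in irradiated cells (573, lowest without WT RT replicate 1), 242 to 543 for RT in WT (597, lowest without WT RT replicate 1), 270 to 559 for RT in KO (590, lowest without KO 0Gy replicate 2) and 1 to 9 for the difference between radiation effects (3, highest without KO RT replicate 1). With only the 6 libraries compared the counts were 103, 252, 166 and 195. The arm-averaged KO contrast called 1187 genes and the genotype-averaged radiation contrast 1627, both added after seeing the data. Median-of-ratios factors gave 194 lower and 114 higher genes for KO in unirradiated cells, against 202 and 74. The difference between radiation effects gave 7 genes with no filter and 1 with eBayes without trend.

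Replicate numbers did not pair the samples: same-numbered libraries of different groups had correlations of deviations of -0.0602 to 0.0641 over 18 pairs, and 2 of 12 libraries correlated best with their own number. With the replicate block the counts were 378 for KO in irradiated cells, 315 for RT in WT, 359 for RT in KO and 1 for the difference between radiation effects. Under the block PARP10 in irradiated cells had an adjusted p of 0.0915.

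Signs changed only for members far from the threshold and for averaged contrasts. For KO in unirradiated cells PARP1 was 0.023 with median-of-ratios factors, 0.017 with quantile normalization and 0.031 averaged over arms, PARP2 was 0.015, 0.0076 and 0.025, and PARP10 was -0.31 averaged over arms. For RT in WT, averaging over genotypes gave -0.012 for DTX3L and -0.20 for PARP10. PARP9 with RT in KO was -0.013 and -0.0095 under these scalings. With left-out libraries KO in unirradiated cells ranged from -0.15 to 0.16 for PARP10, -0.028 to 0.020 for PARP1 and -0.032 to 0.024 for PARP2, and KO in irradiated cells from -0.018 to 0.060 for PARP4. RT in WT ranged from -0.0064 to 0.18 for PARP14, -0.0034 to 0.053 for PARP2 and -0.080 to 0.0048 for PARP4, and RT in KO from -0.082 to 0.095 for PARP9. The difference between radiation effects ranged from -0.11 to 0.12 for PARP12, -0.15 to 0.019 for PARP3 and -0.068 to 0.017 for PARP4. The cause of these moves was not tested.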
